A study of Bos taurus with 11 samples.

Results

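ANGPTL4 (ENSBTAG00000002473) and LIPG (ENSBTAG00000032850) are 2 of the 21996 genes counted in liver RNA of lactating dairy cows. They encode an inhibitor of a lipase and a lipase of plasma lipoproteins. They were chosen by their difference between cows in mild (MNEB) and severe (SNEB) negative energy balance, so their values and calls in that comparison are given as a description and support nothing. The study asked which liver genes differ when the energy drawn by milk after calving exceeds the energy eaten by different amounts. Polyadenylated RNA of whole liver was sequenced as single reads, and reads were counted per gene. All cows were multiparous Holstein-Friesians about 14 days after calving. The 5 MNEB cows, the control group, had grass silage without restriction and the larger concentrate allowance and were milked once daily. The 6 SNEB cows had restricted silage with the smaller concentrate allowance and were milked 3 times daily. Cows at the extremes of measured energy balance had been picked from each feeding group, and diet and milking frequency changed together, so their parts cannot be told apart.

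ANGPTL4 is a secreted inhibitor of lipoprotein lipase, the enzyme that releases fatty acids from circulating triglyceride at the vessel wall, and in liver its gene is a target of the fatty acid sensor PPAR alpha that rises in fasting. LIPG encodes endothelial lipase, a relative of lipoprotein lipase that cleaves mainly phospholipids and acts above all on high density lipoproteins. Angiopoietin-like proteins and proprotein convertases are known to restrain lipases of this family.

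Libraries had been run on 19 lanes of 3 flow cells, called A, B and C. MNEB1, MNEB5, SNEB1, SNEB5 and SNEB6 were each run on B and C, MNEB2 and SNEB2 on C, MNEB3 and SNEB3 on B, and MNEB4 and SNEB4 on 2 and 3 lanes of A. Lanes of a cow were summed. Totals on genes were 4005322, 1994076, 1774011, 3369237 and 3951977 reads in MNEB1 to MNEB5, and from 1869837 in SNEB3 to 6852142 in SNEB4 among SNEB cows. The mean total of SNEB cows was 838302 reads higher, which the variation among cows covered (exact permutation test, two-sided, p = 0.342). Levels are given as CPM, the reads of a gene per 1000000 reads on genes, after TMM scaling, which corrects the library totals. They are not divided by gene length, so ANGPTL4's level is not set against that of LIPG.

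ANGPTL4 had 208, 394, 91.0, 170 and 154 CPM in MNEB1 to MNEB5, from 850, 758, 154, 570 and 611 reads. In SNEB1 to SNEB6 it had 490, 523, 437, 535, 547 and 638 CPM, from 2158, 1254, 815, 3712, 2294 and 2318 reads. No MNEB cow reached the level of any SNEB cow, MNEB2 was the highest and MNEB3 the lowest of the MNEB cows, and SNEB3 was the lowest of the SNEB cows. The group means were 204 ± 115 CPM (SD, n = 5) and 528 ± 66.7 CPM (SD, n = 6). ANGPTL4 was thus spread 4.33-fold from lowest to highest among MNEB cows and 1.46-fold among SNEB cows. The authors had kept 1 of the reads at the same position, which limits how far counts of a gene can rise. The part of that removal in these spreads was not tested. The gap between the groups was small, since SNEB3 was 1.11-fold above MNEB2, and their 95% Poisson intervals, 366 to 423 CPM in MNEB2 and 408 to 468 CPM in SNEB3, met. Such intervals cover counting error only, as reads are not independent molecules.

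LIPG was counted from few reads in MNEB cows, 14, 5, 3, 13 and 48 in MNEB1 to MNEB5, which gave 3.43, 2.60, 1.77, 3.88 and 12.1 CPM. In SNEB1 to SNEB6 it had 30.6, 56.7, 20.9, 41.5, 74.4 and 77.1 CPM, from 135, 136, 39, 288, 312 and 280 reads. Here too the groups did not overlap, MNEB5 stood above the other MNEB cows, and SNEB3 was again the lowest of its group. MNEB cows had a mean of 4.76 ± 4.20 CPM (SD, n = 5), and SNEB cows one of 50.2 ± 23.1 CPM (SD, n = 6). Among SNEB cows LIPG was spread 3.68-fold, more than ANGPTL4 in the same livers. The 95% Poisson intervals of MNEB5 (8.94 to 16.1 CPM) and SNEB3 (14.9 to 28.6 CPM) overlapped, and those of MNEB1 to MNEB4 all overlapped with each other, so an order among those 4 cows was not detectable at this depth. In whole liver, a change in the number of cells that express a gene and a change in its RNA per cell cannot be told apart.

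**Figure D1:**
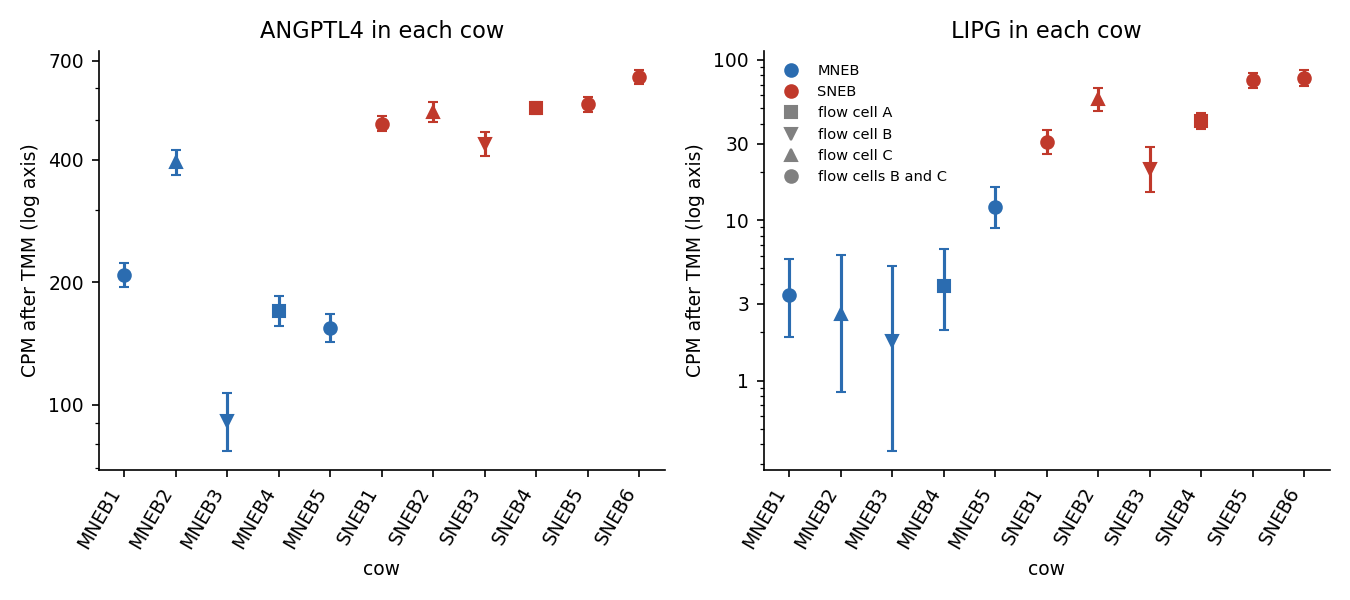
ANGPTL4 (left) and LIPG (right) in each cow, as CPM after TMM on log axes, with 95% Poisson intervals of the counts as bars. Colours give the group and symbols the flow cells of a cow. The 6 SNEB cows lie above the 5 MNEB cows in both panels, with MNEB2 nearest to them for ANGPTL4 and MNEB5 for LIPG.

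The fold change from MNEB to SNEB was 2.60 for ANGPTL4, a log2 fold change of 1.38 (SE 0.27), and 9.69 for LIPG, a log2 fold change of 3.28 (SE 0.46). On the log2 scale the change of LIPG was larger by 1.90. Removal of reads at the same position can limit high counts more than low ones, and its part in these values was not tested. Of 13960 genes that reached 5 reads in any cow, LIPG had the 20th largest estimated rise and ANGPTL4 the 191st, and among the 11847 with a mean of at least 10 reads per cow, the 6th and the 76th, so these ranks depend on the filter. The groups did not overlap for 2 of 2 genes, as for 1.31% of all genes tested, and both were among the genes called higher in SNEB, 0.330% of all, at an adjusted p under 0.1 with edgeR's quasi-likelihood test; these counts follow from how the genes were chosen. Even so, ANGPTL4 was not called without MNEB4, MNEB5 or SNEB6 (log2 fold changes 1.32, 1.29 and 1.32), nor without the cows of flow cell A (1.32). The fold change of LIPG without MNEB5 was 16.2 in place of 9.69.

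The highest MNEB cow was not the same for the inhibitor and the lipase. MNEB2 combined 394 CPM of ANGPTL4 with 2.60 CPM of LIPG, whereas MNEB5 combined 154 CPM of ANGPTL4 with 12.1 CPM of LIPG. Within a cow, the reads of LIPG per 100 reads of ANGPTL4 were 1.65, 0.660, 1.95, 2.28 and 7.86 in MNEB1 to MNEB5 and 6.26, 10.8, 4.79, 7.76, 13.6 and 12.1 in SNEB1 to SNEB6. This ratio needs no scaling between libraries, and it overlapped between the groups, because MNEB5 lay above SNEB1, SNEB3 and SNEB4, though within counting error of them (95% interval 5.73 to 10.5 for MNEB5, from 48 LIPG reads, and 6.86 to 8.75 for SNEB4). MNEB cows had a mean ratio of 2.88 ± 2.85 (SD, n = 5), or 1.63 ± 0.699 (SD, n = 4) without MNEB5, SNEB cows one of 9.22 ± 3.48 (SD, n = 6). MNEB5 had a level of ANGPTL4 like that of MNEB4 and a proportion of LIPG reads like that of SNEB4.

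**Figure D2:**
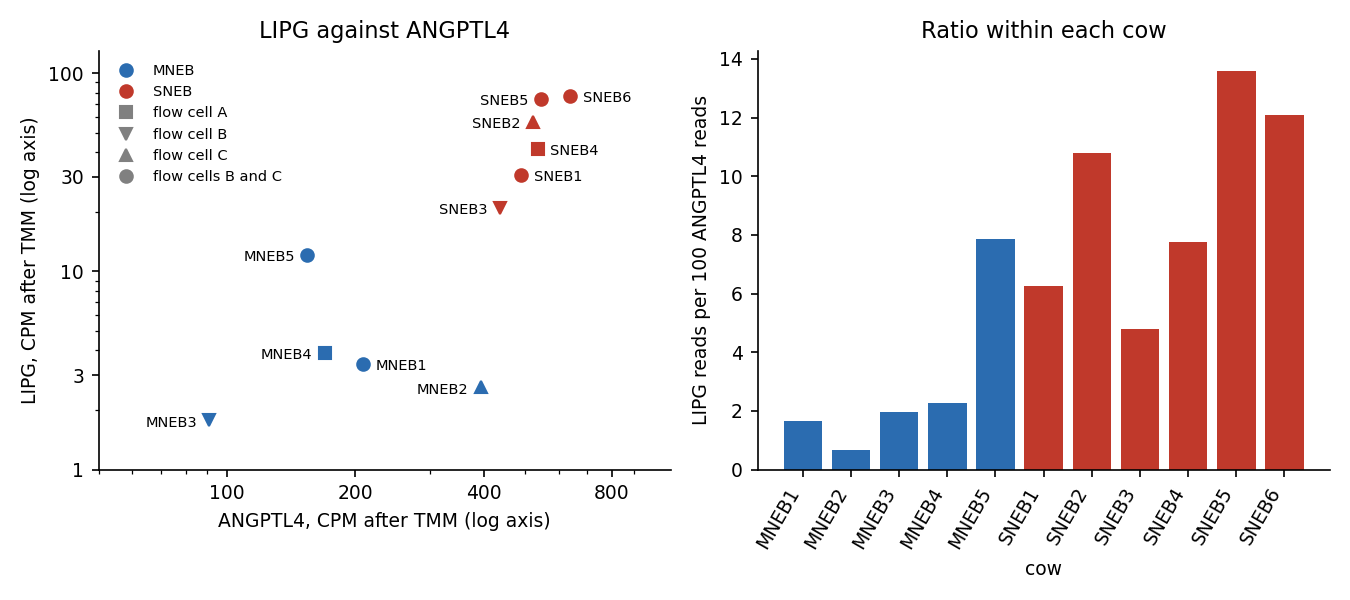
Left, LIPG against ANGPTL4 in CPM after TMM on log axes, 1 point per cow; right, LIPG reads per 100 ANGPTL4 reads in each cow, as bars from 0. The SNEB cows fall along a rising line at the upper right, the MNEB cows do not, and the bar of MNEB5 (7.86) is above those of SNEB1 (6.26), SNEB3 (4.79) and SNEB4 (7.76).

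Whether the genes varied together within a group was examined among the SNEB cows, where the choice of the genes by the group difference has no part. SNEB3 had the lowest level of both genes and SNEB6 the highest of both, and the cows between them kept nearly the same order. Part of that order was within counting error. The 95% Poisson intervals of ANGPTL4 in SNEB2 (494.5 to 552.9 CPM), SNEB4 (518.2 to 552.8) and SNEB5 (524.8 to 569.8) overlapped. Those of LIPG in SNEB5 (66.36 to 83.12 CPM) and SNEB6 (68.29 to 86.63) overlapped as well. Over the 6 SNEB cows, Pearson's r of the log2 CPM was 0.90 (two-sided exact permutation test, p = 0.0111, adjusted p = 0.0167 over both coefficients) and Spearman's rho was 0.94 (exact permutation p = 0.0167, adjusted p = 0.0167). Without SNEB3 and SNEB6, the cows farthest from the median of ANGPTL4, r was 0.83 and rho 0.80, over 4 cows, too few for an exact permutation test to give a p under 0.05 at any values. Leaving out SNEB1, SNEB3 or SNEB6 alone gave r of 0.89, 0.78 and 0.92 (exact permutation p = 0.0667, 0.0667 and 0.05). Apart from these repeats, a coefficient had been planned for at least 6 cows only, so none is given for the 5 MNEB cows, nor for the SNEB cows of 1 flow cell, at most 4, on B and on C. The MNEB cows did not show the order of the SNEB cows: MNEB2, the highest in ANGPTL4, was the lowest but one in LIPG, within counting error of MNEB1, MNEB3 and MNEB4, MNEB5, the highest in LIPG, was the lowest but one in ANGPTL4, and MNEB3 was the lowest in both.

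The group difference was also computed among cows run on the same flow cells. For ANGPTL4 the SNEB level was 3.15 times the MNEB level on flow cell A (95% counting interval 2.88 to 3.44, 1 cow each), 4.80 times on B (4.04 to 5.75, 1 cow each), 1.33 times on C (1.21 to 1.46, 1 cow each) and 3.08 times over the 2 MNEB and 3 SNEB cows run on both B and C. For LIPG these ratios were 10.7 (6.16 to 20.4), 11.8 (3.75 to 59.7, from 3 reads in MNEB3), 21.8 (9.13 to 68.3, from 5 reads in MNEB2) and 7.80. Since the groups did not overlap, each of these ratios had to be above 1. The smallest ratio of ANGPTL4 and the largest of LIPG came from the same pair, MNEB2 and SNEB2 on C, the latter within counting error of the LIPG ratios on A and B.

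In the 5 cows whose library was run on both B and C, ANGPTL4 was higher on C each time. As CPM before TMM, the difference was 1.28-fold in MNEB1, 1.27-fold in MNEB5, 1.10-fold in SNEB1, 1.09-fold in SNEB5 and 1.09-fold in SNEB6. Fitted within those cows with edgeR, flow cell C was 1.12-fold above B for ANGPTL4 (log2 difference 0.16, SE 0.04, adjusted p = 0.000395, higher in 5 of 5 cows) and 1.10-fold for LIPG (0.14, SE 0.10, adjusted p = 0.267, higher in 4 of 5 cows). Most genes differed in that fit, 7444 of 13228 or 56.3%, with a median size of 1.22-fold over all genes, so the shift of ANGPTL4 was one of many and smaller than the typical gene's. MNEB2, the highest MNEB cow in ANGPTL4, was run only on C and MNEB3, the lowest, only on B; they differed 4.33-fold, and the part of the flow cell in this was not tested. MNEB4's lanes on flow cell A gave 142 CPM of ANGPTL4 from 2147404 reads and 217 CPM from 1221833 reads, before TMM, with intervals of 126 to 159 and 192 to 245 CPM. For LIPG the same lanes went the other way, with 12 reads (5.59 CPM, interval 2.89 to 9.76) and 1 read (0.818 CPM, 0.0207 to 4.56). The library had been loaded at a different concentration on each of these lanes, and the part of this was not tested. Taking lanes of B or C alone, settings chosen after seeing the data, gave log2 fold changes of 1.90 and 1.09 for ANGPTL4 and 2.99 and 3.36 for LIPG; ANGPTL4 was not called on C alone, nor LIPG on B alone.

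**Figure D3:**
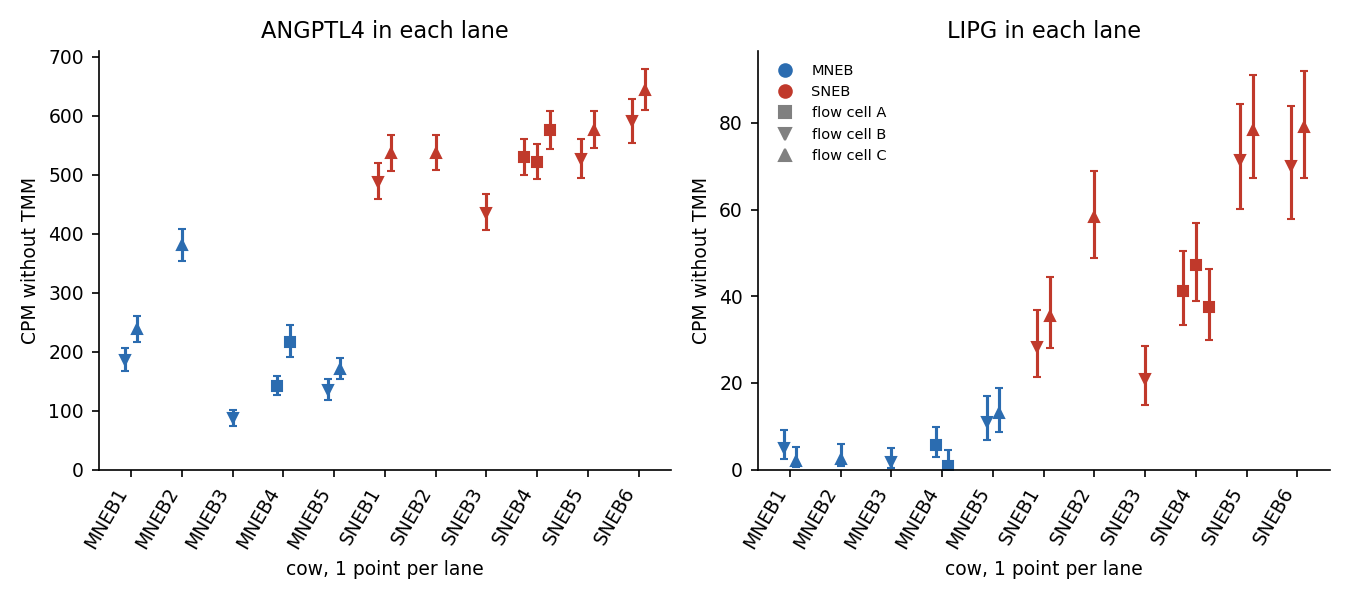
ANGPTL4 (left) and LIPG (right) in each of the 19 lanes, as CPM without TMM from 0, with 95% Poisson intervals. Colours give the group and symbols the flow cell. The lanes of MNEB4 differ in ANGPTL4, 142 and 217 CPM, and ANGPTL4 is higher on C than on B in all 5 cows run on both.

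**Figure D4:**
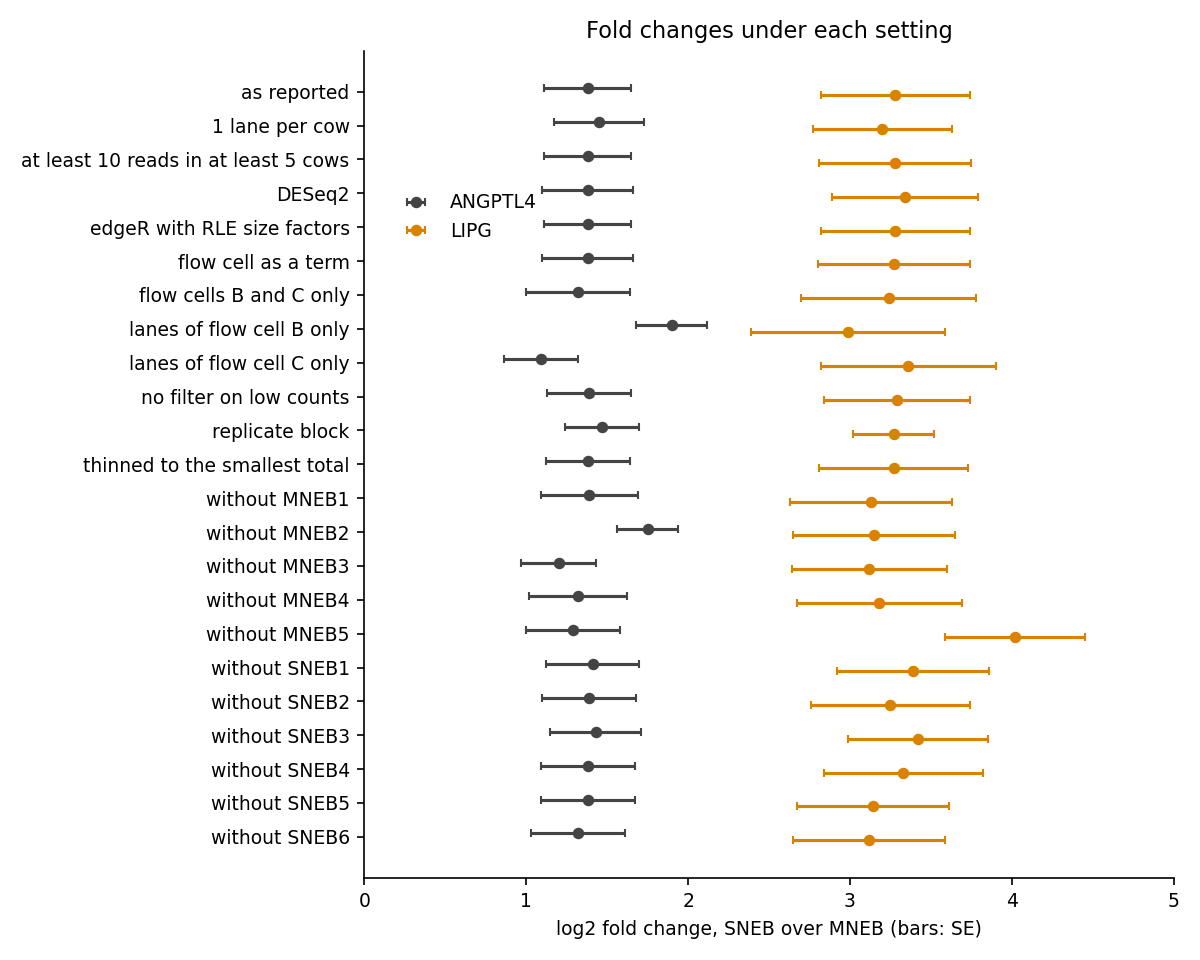
Log2 fold change of SNEB over MNEB cows for ANGPTL4 and LIPG as reported and under each other setting, with standard errors as bars. The flow cell term separates the cows of A from the other cows only. ANGPTL4 runs from 1.09 to 1.90 and LIPG from 2.99 to 4.02, without meeting; ANGPTL4 moves most with the lanes of B only and then without MNEB2, LIPG without MNEB5 and then with the lanes of B only.

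Names could be given only to genes listed in the study's own table of changed genes, so of 65 other genes in lists of lipid handling, 7 could be followed. These had been picked by the study on the same samples, so their direction, calls and p-values are no independent evidence. Over these 7 genes, 1 was called higher in SNEB cows, 0 lower and 6 were not called by edgeR at an adjusted p under 0.1, with 5 at an unadjusted p under 0.05 and a median log2 fold change of 0.78. Over all genes tested, 46 were called higher and 30 lower, 0.544% together, 1165 or 8.35% had an unadjusted p under 0.05, and the median was -0.01. DESeq2 called 5 of the 7, and 290 or 2.08% of all genes. No other lipase or lipase helper, apolipoprotein or VLDL assembly gene of the lists was followed, which leaves lipoprotein lipase itself, hepatic lipase and GPIHBP1 not analysed here.

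OLR1, a scavenger receptor for oxidised low density lipoprotein and the 1 receptor of its list with a name, had 1.19 ± 1.04 CPM (SD, n = 5) in MNEB cows, from 1 to 12 reads, and 4.92 ± 1.66 CPM (SD, n = 6) in SNEB cows, from 5 to 33 reads. Its log2 fold change was 1.94, with an adjusted p of 0.113 in edgeR, and MNEB1 lay above SNEB3. OLR1 was called higher in SNEB cows without MNEB1 (log2 fold change 2.71) or without SNEB3 (2.04). It was called in no other fit with 1 cow left out (adjusted p up to 0.268). Of 11 other alternatives it was called in 3 (adjusted p from 0.019 with DESeq2 to 0.667 in edgeR with lanes of flow cell C alone).

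Of 20 genes of the PPAR alpha axis, 6 could be followed, and FGF21, a secreted hormone of fasting that PPAR alpha induces in liver, was the 1 called. FGF21 had 92.9, 51.4, 63.2, 40.6 and 87.4 CPM in MNEB1 to MNEB5 and from 136 CPM in SNEB6 to 190 CPM in SNEB2 (median 174) among SNEB cows. The groups did not overlap. FGF21 rose from 67.1 ± 22.6 CPM (SD, n = 5) to 167 ± 21.8 CPM (SD, n = 6), a log2 difference of 1.31 (SE 0.20; adjusted p = 0.00953 in edgeR, with all 6 SNEB cows above all MNEB cows). It was called without any 1 of the cows, and was not called with lanes of flow cell C alone (adjusted p = 0.271, the largest of its alternatives, which began at 2.59e-07). As FGF21 was named through the study's table of changed genes, these calls and p-values are a description only.

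CREB3L3, a transcription factor of liver that acts with PPAR alpha in fasting, had 439 ± 98.0 CPM (SD, n = 5) in MNEB cows against 642 ± 53.3 CPM (SD, n = 6) in SNEB cows (edgeR adjusted p = 0.105). PLIN2, a coat protein of lipid droplets, had 188 ± 71.1 and 321 ± 45.7 CPM (SD, n = 5 and 6, edgeR adjusted p = 0.151). In both genes the overlap of the groups came from MNEB2 alone, with 601 CPM of CREB3L3 and 308 CPM of PLIN2, the cow that was also the highest of its group in ANGPTL4, and both genes were called higher in SNEB cows when MNEB2, picked here by its values, was left out, and not in the other 10 fits with 1 cow left out (adjusted p up to 0.228 and 0.299). Of 11 other alternatives, CREB3L3 was called in 4 and PLIN2 in 2. Their adjusted p ran from 0.013 and 0.0246 with DESeq2 to 0.582 and 0.701 in edgeR with lanes of flow cell C alone. PDK4, a kinase that turns pyruvate away from oxidation, had 95.0 ± 46.9 and 205 ± 77.8 CPM (SD, n = 5 and 6, edgeR adjusted p = 0.291), with SNEB3 at 71.9 CPM below 3 MNEB cows. PDK4 was called higher in SNEB cows without SNEB3, but in no other fit with 1 cow left out (adjusted p up to 0.542). Of 11 other alternatives it was called in 1 (adjusted p from 0.0826 with DESeq2 to 0.869 in edgeR with lanes of flow cell B alone). PPARGC1A, a coactivator of PPAR alpha and of gluconeogenesis, had 130 ± 61.5 and 195 ± 79.0 CPM (SD, n = 5 and 6, edgeR adjusted p = 0.636). VNN1, a pantetheinase and the remaining member, had 149 ± 62.9 CPM in MNEB and 84.4 ± 40.5 CPM in SNEB cows (SD, n = 5 and 6, edgeR adjusted p = 0.61), the lower mean being in SNEB, and was named after its values were seen. SNEB3, the lowest SNEB cow in ANGPTL4 and LIPG, was also the lowest of its group in OLR1, PDK4 and VNN1, yet had 183 CPM of FGF21 and 675 CPM of CREB3L3, each the highest but one of its group.

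**Figure D5:**
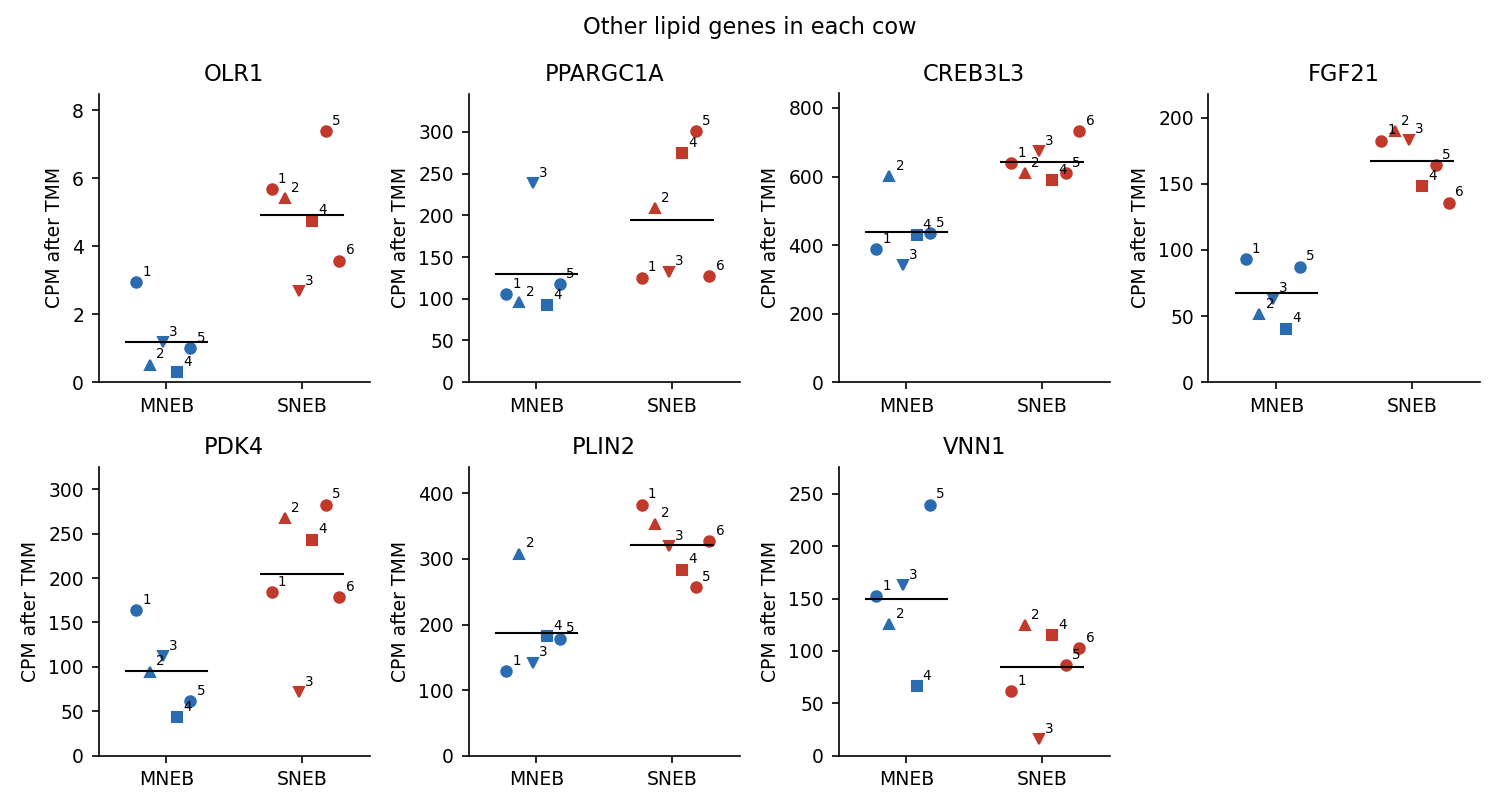
CPM after TMM of the 7 other lipid genes in each cow, numbered within its group, with the group mean as a line and axes from 0. Blue is MNEB and red SNEB; squares, downward triangles, upward triangles and circles mark flow cells A, B, C, and both B and C. The groups do not overlap for FGF21, and cow 2 is the highest of the MNEB cows for CREB3L3 and PLIN2.

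Gene by gene likeness over the cows was compared among 11847 genes with a mean of at least 10 reads per cow, as Pearson's r of log2 CPM, given without a test. Over all 11 cows, which includes the difference between the groups, the genes most like ANGPTL4 were CREB3L3 (r = 0.946), a gene without a name here (0.946) and TMEM120A (0.943). Those most like LIPG were ENSBTAG00000018310 (0.964), another gene without a name here (0.942) and C6orf154 (0.935). LIPG and ANGPTL4 had an r of 0.807 with each other, rank 105 among the genes compared with ANGPTL4 and rank 71 among those compared with LIPG. After each cow was centred on its group mean, that value was 0.154, rank 4957 and rank 4412. The 3 genes then most like ANGPTL4, led by ENSBTAG00000017656, had r of 0.958, 0.948 and 0.944, and the 3 most like LIPG, again led by ENSBTAG00000018310, had 0.918, 0.894 and 0.874; none of these 6 genes had a name here, and none was among the 3 for both. In the 5 MNEB cows, which enter the centred value beside the SNEB cows, MNEB2 was far above the group mean only in ANGPTL4 and MNEB5 only in LIPG.

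The liver label and the vessel wall, adipose and blood cells that a liver sample can hold could not be checked by name, since none of 8 hepatocyte, 10 endothelial, 6 adipocyte, 5 erythroid and 5 stellate cell markers was among the named genes. Of 7 leukocyte markers only MARCO, a receptor of tissue macrophages, could be followed. It had 97.3, 224, 62.6, 140 and 172 CPM in MNEB1 to MNEB5 and from 41.2 CPM in SNEB4 to 178 CPM in SNEB3 (median 84.0) among SNEB cows. The groups overlapped, with 139 ± 63.0 CPM (SD, n = 5) and 90.4 ± 51.5 CPM (SD, n = 6; edgeR adjusted p = 0.712). MARCO too was named through the study's table of changed genes, so its values are a description only. Its estimate on the log2 scale was -0.64 (SE 0.38), the lower level being in SNEB cows. That MARCO was not called here does not show that its level was unchanged. MNEB2 and MNEB5, the highest MNEB cows in ANGPTL4 and in LIPG, were the highest MNEB cows in MARCO, while among SNEB cows SNEB3 was the highest in MARCO and the lowest in both genes. The part of macrophages in these values was not tested.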

How the data were processed

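Liver RNA of 5 MNEB and 6 SNEB cows was compared, with groups taken from the sample labels. The deposited values are raw counts per Ensembl gene and lane, without normalization. Before that, the authors had mapped every lane separately with Bowtie to the BCM4 assembly, left out reads with several alignments, kept 1 of the reads at the same position, which limits how far counts of a gene can rise, and counted with HTSeq in union mode. The part of that removal in these results was not tested.

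Lanes were summed per cow, and 13960 genes that reached 5 reads in any cow entered edgeR 4.0.16 in R 4.3.3 (TMM, quasi-likelihood test, Benjamini-Hochberg adjustment, called at an adjusted p under 0.1), after a check on simulated counts. Log2 CPM used a prior count of 0.5. Exact permutation tests used scipy 1.17.1, plots matplotlib 3.10.9. DESeq2 1.42.0 was an alternative, beside another scaling, other filters, 1 lane per cow, thinning, a term for the replicate number, and each cow left out in turn. A further alternative had a term for flow cell A against the other cows, which does not adjust for B against C. Lanes run on both B and C were compared with cow as a block.

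Names came from the identifier and name columns of a table of the study, 413 genes, and none of its values was used. The text names called genes of each list, up to 4 others with the highest mean CPM, VNN1 in addition, and the 3 genes most like each of ANGPTL4 and LIPG, of which at most 2 are printed by identifier where no name was at hand. 1 further gene, left out of the lists, is not reported here. ANGPTL4, LIPG and the lists were chosen with earlier results of these data known.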

Additional observations from a re-analysis of the deposited data

Results flagged for a closer look

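In each group of cows, the gap between the highest or lowest cow and its nearest neighbour was compared with the range of the group, for 24 groups of values, and chance alone marks about 1 in 20 groups. MNEB5 stood apart from the other MNEB cows in LIPG, with 12.1 CPM against 1.77 to 3.88 CPM. For LIPG reads per 100 ANGPTL4 reads, MNEB5 stood apart again, with 7.86 against 0.660 to 2.28 in the other 4 cows; both values use the same 48 LIPG reads. These reads were spread over its lanes, 20 on flow cell B and 28 on flow cell C. MNEB3 stood apart in PPARGC1A, with 239 CPM against 92.8 to 117 CPM in the other MNEB cows. MNEB2, the highest MNEB cow in ANGPTL4 (394 CPM), was not marked.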

How the results depend on the processing

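The log2 fold changes of ANGPTL4 and LIPG stayed positive in these alternatives. As the groups did not overlap, their direction could hardly change. ANGPTL4 was not called in 2 of 11 alternatives (flow cells B and C only, lanes of C only) and in 3 of 11 fits with 1 cow left out, LIPG in 1 and 0 (lanes of B only). ANGPTL4 lay between 1.09 and 1.90 over 11 alternatives, and between 1.2 and 1.75 with 1 cow left out. LIPG lay between 2.99 and 3.36, and between 3.12 and 4.02. Their difference of 1.90 lay between 1.09 and 2.27, and between 1.39 and 2.72.

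Of all genes, 76 were called. DESeq2 called 290, the limit of 0.05 left 48, flow cells B and C only gave 34, and the lanes of flow cell B or C alone, added after seeing the data, gave 27 and 21; the last 3 use fewer cows. With 1 cow left out the count lay between 40 (without MNEB5) and 125 (without MNEB1), and was 50 without MNEB3 and 120 without SNEB3. Of the 7 other lipid genes, 1 was called, against 5 with DESeq2, 3 with 1 lane per cow, 3 with at least 10 reads in at least 5 cows, 3 on lanes of B and 0 on lanes of C (edgeR; 7 had an unadjusted p under 0.05 there), and between 1 and 3 with 1 cow left out (2 without MNEB1, 3 without MNEB2 or SNEB3). The cause was not tested. The correlation among SNEB cows lay between 0.78 and 0.94 with 1 cow left out. The difference in total reads was 326897 on flow cells B and C and 75003 with 1 lane per cow.

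With the replicate block, 80 genes were called, 1 of the 7 lipid genes among them, and log2 fold changes were 1.47 for ANGPTL4 and 3.27 for LIPG, 1.80 apart. The numbers mark no stated pairing: the deviations of same-numbered cows correlated at -0.02 to 0.26 over genes, above 0.1 in 2 of 5 pairs, and 1 of 5 MNEB cows correlated best with its own number, although all 5 pairs shared their flow cells. Depth limits LIPG in MNEB cows, with 3 to 48 reads each.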
